A study of Mus musculus with 6 samples.

Results

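Expression of 9 genes that receive and transmit Hedgehog signals was compared between CD34 negative and CD34 positive cancer-associated fibroblasts (CAFs) of mouse mammary tumors. The genes were chosen by symbol from the 27179 genes of the count table, and all 9 were found. They encode the receptor Ptch1, the signal transducer Smo, the decoy receptor Hhip, the co-receptors Cdon, Boc and Gas1, and the transcription factors Gli1, Gli2 and Gli3. The tumors came from female raGFP-Wnt1 mice, which carry an MMTV-Wnt1 transgene (FVB/NJ) together with a heterozygous Pdgfra H2B-GFP reporter (C57BL/6), and ages are not given in the sources used here. In this model the MMTV promoter drives Wnt1 mainly in mammary epithelium, and the reporter places nuclear GFP in cells that use the Pdgfra promoter, so fibroblasts without Pdgfra would not be marked. GFP-positive cells of each of 3 tumors were sorted into a CD34 negative and a CD34 positive fraction, and poly(A) RNA of each fraction was sequenced, giving 6 libraries with 3 per group. Both groups carry both alleles and no other treatment is given. A library is called negative or positive library 1, 2 or 3 after its CD34 status and its tumor. The sources do not say whether each tumor came from its own mouse, so the p-values speak for these tumors only. Without a term for the tumor they measure the spread between libraries of a group. With such a term they measure the spread of the differences within tumors.

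Hedgehog ligands are lipid-modified proteins that bind Ptch1 at the cell surface. Without ligand, Ptch1 holds Smo inactive, and Gli3 and part of Gli2 are cut into repressors. With ligand, Smo gathers in the primary cilium and full-length Gli2 and Gli3 activate target genes, among them Gli1, Ptch1 and Hhip, whose RNAs are widely used as readouts of the pathway. Cdon, Boc and Gas1 help the ligand reach Ptch1, whereas Hhip and Ptch1 itself take it up and limit its range. In the mammary gland the pathway is studied mostly as a signal received by the stroma, and the study asked how CD34 relates to it in fibroblasts. The comparison here addresses how the receiving end of the pathway differs between CAFs with and without CD34.

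Library totals ranged from 16238059 to 86609267 counts, and genes with at least 1 count from 14314 to 19220. Negative library 3 stood apart, with counts for the fewest genes and with 161 genes at 0 whose mean was at least 2 CPM in the other libraries, against 1 to 31 such genes elsewhere. CPM is the count of a gene relative to a library total that was scaled with TMM factors, which correct for RNA composition. Cd34, on which the cells were sorted, stood at 79.2, 42.0 and 102 CPM in negative libraries 1, 2 and 3 and at 678, 562.5 and 1605 CPM in positive libraries 1, 2 and 3, and the reporter gene Pdgfra was present in all, at 302 to 506 CPM. Summed fibroblast markers (5 genes) overlapped between the groups, at 23891 to 39368 CPM in the negative and 25535 to 33585 CPM in the positive libraries, but 2 of them, Dcn and Lum, fell with the block (by 1.12 and 0.73 on the log2 scale, limma-voom adjusted p = 0.00154 and 0.0140). The 3 pericyte markers summed to 97.0 to 106 CPM in the negative and 14.3 to 49.5 CPM in the positive libraries, none of them at 0 in any library. The 5 cycling-cell markers summed to 11.7 to 56.5 CPM in the negative and 39.5 to 263 CPM in the positive libraries, with Cdk1 and Aurkb at 0 in at least 1 library. The 2 keratinocyte markers summed to 1.05 to 3.85 against 7.11 to 10.8 CPM, with Krtdap at 0 in at least 1 library. The 4 muscle markers summed to 2.97 to 13.3 against 1.52 to 1.86 CPM. Of these, Des had means of 6.85 against 1.11 CPM, whereas Acta1 went the other way, at 0.22 against 0.54 CPM. Myog had 3 counts in all and Myf5 had 0. The part of these marker lists in the members' differences was not tested. In sorted bulk RNA, fewer cells that express a gene and less RNA per cell cannot be told apart.

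Levels of different genes were compared per length, as RPKM (CPM divided by the exon length in kilobases that the table gives). Gas1, a membrane-anchored co-receptor, was the most abundant member, with a lowest, median and highest library of 38.7, 56.1 and 159 RPKM. It lay above Smo in 6 of 6 libraries. Smo (21.7, 22.7 and 27.3 RPKM), Cdon (8.26, 20.9 and 40.7 RPKM) and Boc (10.2, 19.1 and 30.9 RPKM) followed, and their order was not fixed: Smo exceeded Cdon in 4 of 6 libraries and Cdon exceeded Boc in 4 of 6. Boc lay above Gli3 in 6 of 6 libraries. The GLI factors followed in the order Gli3 (4.56, 7.21 and 8.22 RPKM), Gli2 (3.31, 5.13 and 7.42 RPKM) and Gli1 (1.80, 2.22 and 6.45 RPKM), each above the next in 5 of 6 libraries. Ptch1, at 1.53, 2.37 and 5.65 RPKM, could not be separated from Gli1, which was higher in 4 of 6 libraries. Hhip was the least abundant in 6 of 6 libraries, at 0.00303, 0.0351 and 0.268 RPKM. The receptor machinery was thus expressed in CAFs of both fractions, with the co-receptors and Smo above the GLI factors and Ptch1.

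**Figure D1:**
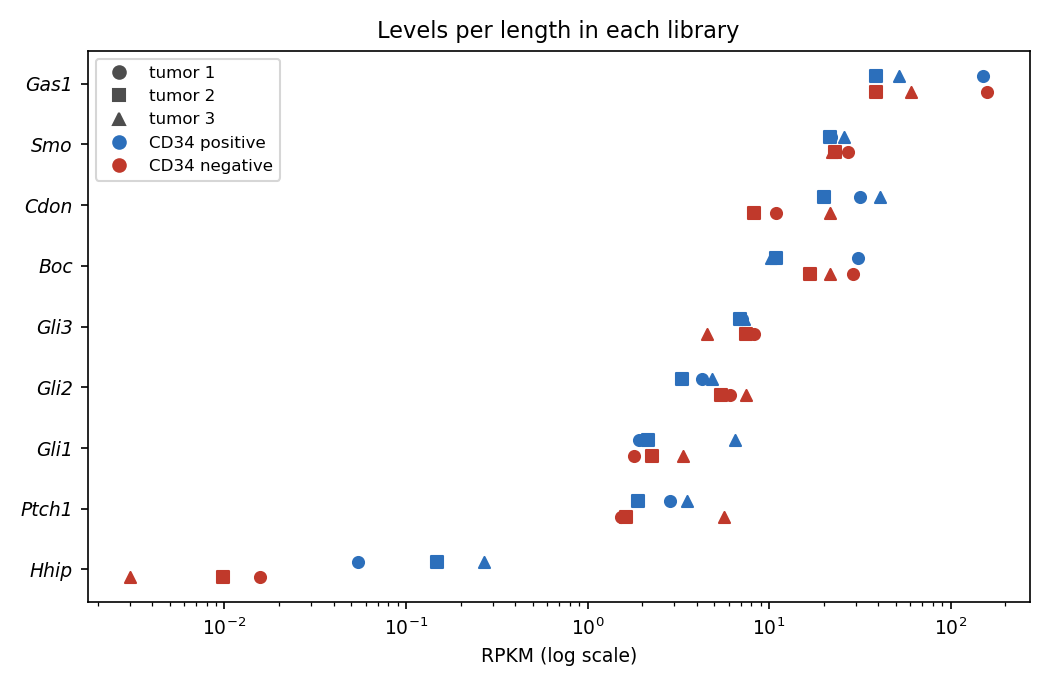
Expression of the 9 members per length (RPKM, log axis), with 1 point per library and the 2 groups in different colors. Gas1 lies highest, at 38.7 to 159 RPKM, and Hhip lowest, at 0.00303 to 0.268 RPKM, and the ranges of Gli1 and Ptch1 overlap.

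The fractions were compared with limma-voom, the method that the study names, over all 14855 genes that passed a low-count filter. A positive log2 fold change means higher in CD34 negative CAFs, and p-values were adjusted after Benjamini-Hochberg. All 9 members passed the filter, Hhip only through its positive libraries, so it had to differ to be tested. Without a term for the tumor, 0 of 9 members had an adjusted p under 0.05, where 0.121% of all genes tested did. At an unadjusted p under 0.05, limma-voom without this term had 3 members (Gli2, Hhip and Cdon), beside 2128 of the 14855 genes. With edgeR and DESeq2, 0 members were called as well, beside 9 and 698 of all genes. Here DESeq2 gave Hhip no adjusted p (log2 fold change -4.03 ± 1.13, SE), so Hhip was not assessed by it. Cdon lay at an adjusted p of 0.0555 in this DESeq2 fit. The 2 fractions with the same number come from the same tumor, so the test was also run with the tumor as a block, which compares them within tumors. It called 2 of 9 members, Gli2 higher and Cdon lower in CD34 negative CAFs, against 8.57% of all genes (4.32% higher and 4.25% lower). The block called 1 member with edgeR (Cdon) and 3 with DESeq2 (Cdon, Gli2 and Hhip), beside 575 and 1733 of all genes. The CPM of the groups did not overlap for 2 of 9 members, Gli2 and Hhip, against 20.4% of all genes. In 3 of 3 tumors the negative fraction was higher for 2 members (Gli2 and Gas1), against 22.8% of all genes. It was lower in 3 of 3 tumors for 2 members (Hhip and Cdon), against 23.4% of all genes. Over the members, the median log2 fold change was -0.08, with 4 above and 5 below 0, and over all genes it was -0.03.

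**Figure D2:**
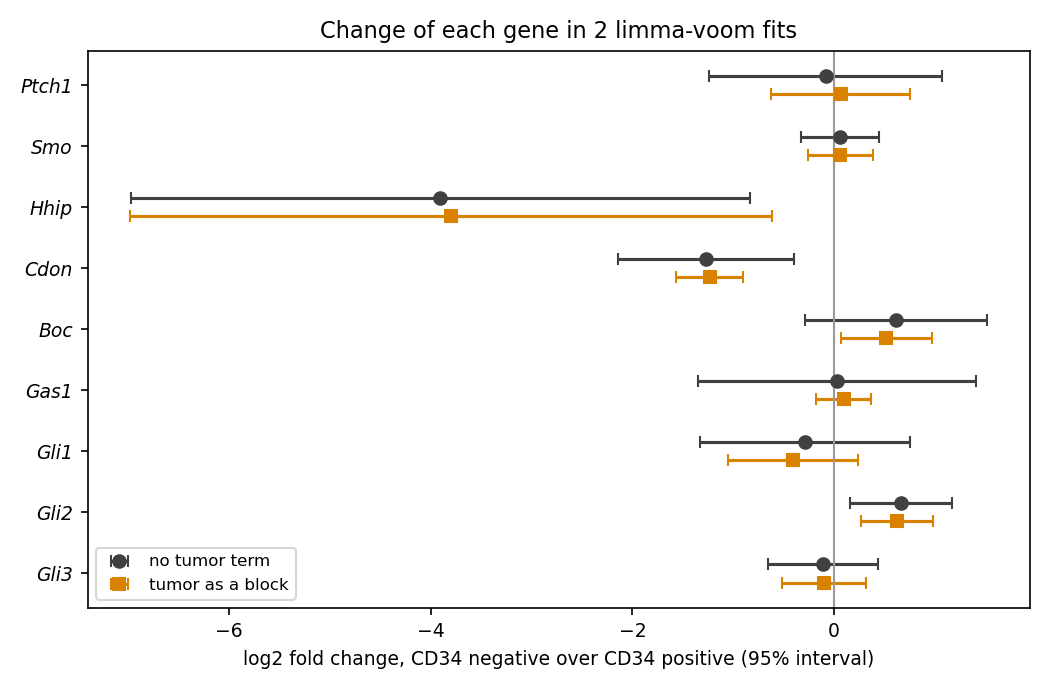
Log2 fold change of each member, CD34 negative over CD34 positive CAFs, from limma-voom without and with the tumor as a block, with 95% confidence intervals. With the block the interval narrows most for Gas1 and Cdon, and that of Cdon runs from -1.57 to -0.90.

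**Figure D3:**
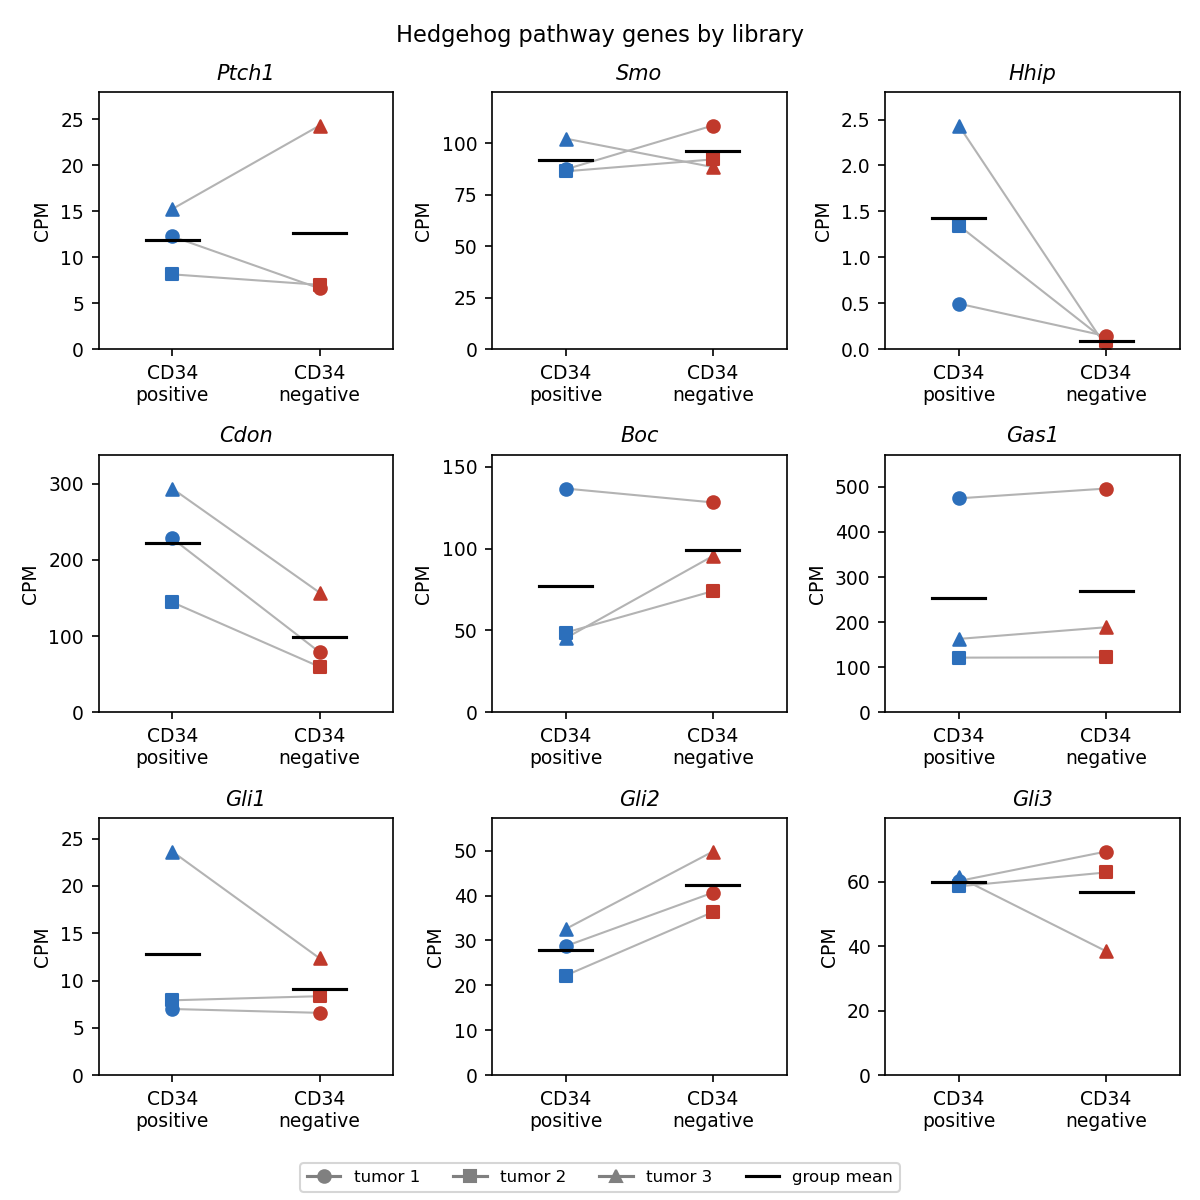
CPM of each member in the 6 libraries, with lines joining the 2 fractions of 1 tumor. Cdon falls and Gli2 climbs from the positive to the negative fraction in 3 of 3 tumors, whereas the lines of Gli1, Gli3, Ptch1, Smo and Boc run both ways.

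Hhip, the membrane-anchored decoy that binds Hedgehog ligands, showed the widest difference among the members, from very few counts. Its counts were 8, 4 and 1 in negative libraries 1, 2 and 3 and 8, 115 and 69 in positive libraries 1, 2 and 3. In CPM this was 0.142, 0.0886 and 0.0275 against 0.495, 1.35 and 2.43, so the groups did not overlap and the lowest positive library lay above the highest negative one. Summed over libraries, 13 counts of 139860876 stood against 192 of 130051423, a ratio of 15.9 (95% interval 9.07 to 30.4, exact conditional binomial, counting error only). The limma-voom log2 fold change was -3.90 ± 1.34 (SE, n = 3 per group, 95% CI -6.97 to -0.83, adjusted p = 0.247), and with the block -3.80 (adjusted p = 0.143). These fitted folds depend on the prior count added to values near 0. DESeq2 with the block gave -3.92 (adjusted p = 0.0172), and limma-voom without negative library 3 gave -3.44 (adjusted p = 0.287). Hhip passed the low-count filter only through its positive libraries, so these tests are no independent support for the difference. The Hhip gene lies on the minus strand at chr8:79965850-80058060 (GRCm38.p6).

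Smo, the membrane-spanning protein that carries the signal inward, varied least of the members. It stood at 109, 92.2 and 88.4 CPM in negative libraries 1, 2 and 3 and at 87.3, 86.4 and 102 CPM in positive libraries 1, 2 and 3. The groups overlapped, and their log2 difference was 0.06 ± 0.17 (SE, n = 3 per group, 95% CI -0.32 to 0.45, limma-voom adjusted p = 0.900). The interval thus limits any difference in Smo to less than 0.45 on the log2 scale. Smo is encoded on the plus strand at chr6:29735497-29761366.

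To show the members at the extremes of the comparison, the bases just before the RefSeq start of Hhip (the widest difference) and of Smo (the least variable), taken as the gene's outermost bound, are given 5′ to 3′ on the gene's strand, from RefSeq on GRCm38.p6. Capitals mark the GC box CCGCCC, the reverse complement of GGGCGG, a motif that the factor Sp1 is known to bind. The Hhip stretch is chr8:80058061-80058258 on the minus strand and the Smo stretch chr6:29735247-29735496 on the plus strand.
Hhip: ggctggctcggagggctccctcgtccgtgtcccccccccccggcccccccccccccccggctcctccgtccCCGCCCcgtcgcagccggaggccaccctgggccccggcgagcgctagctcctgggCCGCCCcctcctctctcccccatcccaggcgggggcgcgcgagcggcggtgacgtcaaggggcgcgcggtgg
Smo: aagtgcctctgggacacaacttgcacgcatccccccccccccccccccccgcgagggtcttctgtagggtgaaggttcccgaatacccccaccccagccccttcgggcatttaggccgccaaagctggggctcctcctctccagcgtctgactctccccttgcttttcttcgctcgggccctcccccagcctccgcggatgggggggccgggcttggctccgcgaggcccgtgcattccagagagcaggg
The Hhip stretch (198 bases) held 2 GC boxes and the Smo stretch (250 bases) none. Any link between GC boxes and the difference in expression was not tested.

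Promoter windows of 250 bases before to 50 bases after the start were matched for 7 of the 9 members, all but Gli1 and Boc, and searched on both strands. Each window belongs to 1 annotated start, which for Gli2, Ptch1, Hhip and Cdon lies inside the gene's outermost bounds, and the Cdon window overlaps a Cdon exon. The GLI consensus GACCACCCA was found in 0 of 7 windows and in 0.253% of 32851 windows of all genes, and its core CCACCCA, which lies within the consensus, in 0 of 7 and in 9.3%. The GC box was found in the windows of Gli2, Gli3, Hhip, Gas1 and Ptch1, which is 5 of 7, against 35.7% of all windows. In these 5, the 250 bases before the start held 58.8% to 78.4% G and C, against a median of 52.4% over all windows. Without a GC box, Smo held 68.4% and Cdon 42.8%. TATAAA was found in 0 of 7 windows and in 13.6% of all. These matches describe the letters in short windows and say nothing of binding.

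Ptch1, the receptor and itself a target of the pathway, did not pass the test and had no shared direction over tumors. It stood at 6.61, 6.997 and 24.3 CPM in negative libraries 1, 2 and 3 and at 12.3, 8.14 and 15.2 CPM in positive libraries 1, 2 and 3. Negative library 3 was the highest of all 6 and the other negative libraries were the lowest, so the negative group spanned the positive one. The log2 fold change was -0.08 ± 0.50 (SE, n = 3 per group, 95% CI -1.24 to 1.07, limma-voom adjusted p = 0.957). Within tumors it was -0.89, -0.22 and 0.67 in tumors 1, 2 and 3, and without negative library 3 it was -0.62. Ptch1 lies on the minus strand at chr13:63508328-63573460.

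Cdon, an immunoglobulin-family co-receptor of Hedgehog ligands, had less RNA in the negative than in the positive fraction of each of the 3 tumors. It stood at 78.8, 59.6 and 157 CPM in negative libraries 1, 2 and 3 and at 228, 144 and 294 CPM in positive libraries 1, 2 and 3, with means of 98.4 ± 51.6 and 222 ± 74.8 CPM (SD, n = 3). The groups overlapped, since negative library 3 lay above positive library 2, but each negative library lay below the positive library of its own tumor. Without the block the log2 fold change was -1.27 ± 0.38 (SE, 95% CI -2.14 to -0.40, limma-voom adjusted p = 0.190). With the block Cdon fell by 1.23 on the log2 scale (SE 0.15, 95% CI -1.57 to -0.90, adjusted p = 0.00186), and edgeR with the block gave an adjusted p of 0.0181. Within tumors 1, 2 and 3 the difference was -1.53, -1.28 and -0.90. Of all genes, 23.4% were likewise lower in 3 of 3 tumors. The blocked limma-voom fit also called Cdon without each tumor in turn, with log2 fold changes of -1.08, -1.23 and -1.42 without tumors 1, 2 and 3. Each of these fits holds only 2 tumors, so they say little of the spread between tumors. Without the block and without negative library 3 the value was -1.68 (limma-voom adjusted p = 0.158). Cdon lies on the plus strand at chr9:35421528-35507652.

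Boc, the closest relative of Cdon and likewise a co-receptor, had a fold change of the opposite sign. It stood at 128, 74.0 and 95.5 CPM in negative libraries 1, 2 and 3 and at 137, 48.6 and 45.2 CPM in positive libraries 1, 2 and 3. The highest values of both groups were those of tumor 1, where the fractions nearly coincided, and the negative library was the higher one in tumors 2 and 3. The log2 fold change was 0.61 ± 0.39 (SE, n = 3 per group, 95% CI -0.29 to 1.52, limma-voom adjusted p = 0.519), and with the block 0.52 ± 0.20 (adjusted p = 0.158). From 2 tumors each, the blocked limma-voom value was 0.81 without tumor 1 (adjusted p = 0.0105). It was 0.47 without tumor 2 (adjusted p = 0.372) and 0.25 without tumor 3 (adjusted p = 0.393). Boc lies on the minus strand at chr16:44485045-44558870.

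Gas1 differed between tumors and hardly within them. It stood at 496, 122 and 189 CPM in negative libraries 1, 2 and 3 and at 475, 121 and 163 CPM in positive libraries 1, 2 and 3. Tumor 1 was the highest and tumor 2 the lowest in both groups, and the fractions of 1 tumor lay close together. The log2 fold change was 0.03 ± 0.60 without the block (SE, n = 3 per group, 95% CI -1.35 to 1.40, limma-voom adjusted p = 0.989) and 0.09 ± 0.12 with it (95% CI -0.18 to 0.37, adjusted p = 0.715). The blocked interval limits a rise in CD34 negative CAFs to 0.37 on the log2 scale. Gas1 lies on the minus strand at chr13:60174405-60177535.

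Since the fold changes of the co-receptors Cdon and Boc had opposite signs, their balance was computed within each library as a ratio of RPKM values, 1 of 8 such ratios between members, given as descriptions with no test. The direction of this ratio thus follows from those fold changes and adds no support to them. Cdon over Boc was 0.377, 0.494 and 1.01 in negative libraries 1, 2 and 3 and 1.02, 1.82 and 3.99 in positive libraries 1, 2 and 3. Every positive library thus held more Cdon than Boc RNA per length, and negative libraries 1 and 2 held less. Within tumors 1, 2 and 3 the log2 ratio differed by -1.44, -1.88 and -1.98. Gas1 over Cdon was 14.5, 4.71 and 2.77 in the negative and 4.80, 1.93 and 1.28 in the positive libraries, so the groups overlapped while the negative fraction was the higher one in each tumor.

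**Figure D4:**
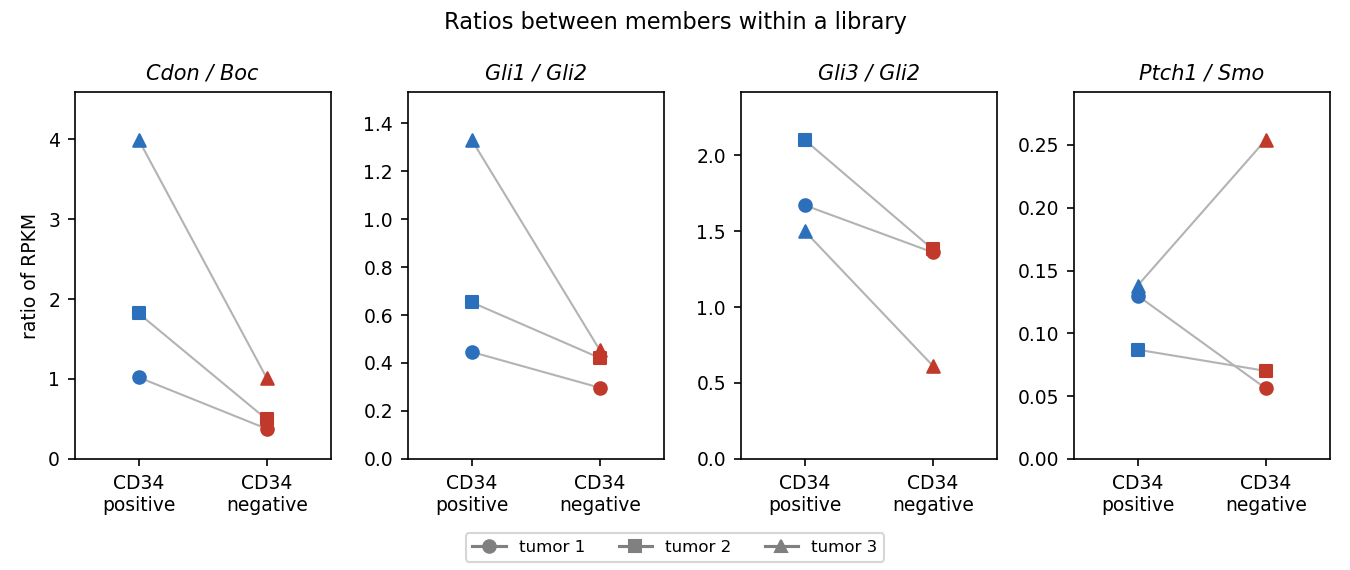
Ratios of RPKM between pairs of members within each library, by fraction, with lines joining the fractions of 1 tumor. Cdon over Boc lies at 1.02 to 3.99 in the positive and 0.377 to 1.01 in the negative libraries, and Ptch1 over Smo has no shared direction.

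Gli2, the main activator among the GLI factors, had more RNA in the negative than in the positive fraction of each of the 3 tumors. It stood at 40.6, 36.3 and 49.8 CPM in negative libraries 1, 2 and 3 and at 28.7, 22.2 and 32.5 CPM in positive libraries 1, 2 and 3, with means of 42.2 ± 6.88 and 27.8 ± 5.23 CPM (SD, n = 3). The groups did not overlap. Without the block the log2 fold change was 0.66 ± 0.22 (SE, 95% CI 0.16 to 1.17, limma-voom adjusted p = 0.236), and with the block Gli2 rose by 0.63 ± 0.16 (95% CI 0.27 to 0.98, adjusted p = 0.0403). Within tumors 1, 2 and 3 the difference was 0.50, 0.71 and 0.61. Of all genes, 22.8% were likewise higher in 3 of 3 tumors. The blocked call was lost with edgeR (adjusted p = 0.0815) and without tumor 1 (0.68, adjusted p = 0.0855) or tumor 2 (0.55, adjusted p = 0.395). Without the block and without negative library 3 the value was 0.53 (limma-voom adjusted p = 0.348). Gli2 lies on the minus strand at chr1:118834061-119054405.

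Gli3, the main source of the repressor form, stood at 69.3, 62.8 and 38.4 CPM in negative libraries 1, 2 and 3 and at 60.2, 58.5 and 61.4 CPM in positive libraries 1, 2 and 3. Negative library 3 was the lowest and the other negative libraries the highest. The log2 fold change was -0.11 ± 0.24 (SE, n = 3 per group, 95% CI -0.66 to 0.44, limma-voom adjusted p = 0.867) and turned to 0.14 without negative library 3. Gli3 over Gli2 was 1.36, 1.38 and 0.614 in the negative and 1.67, 2.10 and 1.5 in the positive libraries, which did not overlap. Gli3 lies on the plus strand at chr13:15463723-15730026.

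Gli1, an activator and the target gene used to mark cells with an active pathway, stood at 6.59, 8.35 and 12.4 CPM in negative libraries 1, 2 and 3 and at 6.99, 7.91 and 23.6 CPM in positive libraries 1, 2 and 3. The fractions lay close together in tumors 1 and 2, and positive library 3 was the highest of all 6. The log2 fold change was -0.29 ± 0.45 (SE, n = 3 per group, 95% CI -1.33 to 0.75, limma-voom adjusted p = 0.813), and with the block -0.41 ± 0.29 (95% CI -1.06 to 0.24, adjusted p = 0.458). Without positive library 3 it turned to 0.13. Gli1 over Gli2 was 0.297, 0.421 and 0.454 in the negative and 0.446, 0.653 and 1.33 in the positive libraries, lower in the negative fraction of each tumor, with log2 differences of -0.59, -0.63 and -1.55. Gli1 lies on the minus strand at chr10:127329882-127341579 and overlaps Arhgap9, which had 25 counts in all against 2655 for Gli1.

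The 3 members known as pathway targets were set side by side within tumors. In tumor 1 the log2 difference was -0.09 for Gli1, -0.89 for Ptch1 and -1.80 for Hhip. In tumor 2 it was 0.08 for Gli1, -0.22 for Ptch1 and -3.76 for Hhip. In tumor 3 it was -0.94 for Gli1, 0.67 for Ptch1 and -5.89 for Hhip. Hhip was lower in the negative fraction of each tumor, whereas Gli1 and Ptch1 differed in sign between tumors and went opposite ways in tumors 2 and 3.

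For 6 members the range of the tumor means was wider than the size of the blocked fold change. That fold change averages signed differences, which cancel where tumors go opposite ways. Within tumors 1, 2 and 3 the fractions differed by 0.31, 0.09 and -0.21 for Smo and by 0.20, 0.10 and -0.68 for Gli3. The range of the tumor means, on the log2 CPM scale, was 2.00 for Gas1, 1.35 for Ptch1, 1.33 for Gli1 and 1.14 for Boc, beside blocked fold changes of 0.09, 0.07, -0.41 and 0.52. For Gli3 it was 0.41 beside -0.10 and for Smo 0.13 beside 0.06. For the other 3 members the size of the fold change was the larger: Cdon (range 1.21, fold change -1.23), Gli2 (0.50 and 0.63) and Hhip (0.38 and -3.80). Among pairs of members, the profiles over the 6 libraries lay closest for Gli3 and Smo (root mean square difference of centred log2 CPM 0.232), then Gli2 and Smo (0.347) and Boc and Gas1 (0.466). The genes whose profile lay closest to that of Gli1, of 11481 that averaged 1 or more on the log2 CPM scale, were Gbp3 (0.158), Ifih1 (0.223) and Fbxw17 (0.227).

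Of the ligands, Shh had 0 counts in all 6 libraries, which allows up to 3 counts or 0.0351 to 0.186 CPM. Ihh had 12, 7 and 0 counts in negative libraries 1, 2 and 3 and 3, 9 and 0 in positive libraries 1, 2 and 3, a ratio of the sums per total of 1.47 (exact 95% interval 0.679 to 3.33). Dhh had 11, 11 and 11 counts in the negative and 0, 1 and 0 in the positive libraries, or 33 against 1, a ratio of 30.7 (5.14 to 1250, counting error only). Dhh was thus seen nearly always in CD34 negative CAFs, at 0.196 to 0.303 CPM, but lay under the filter. In a limma-voom fit of all 20392 genes with a count, its log2 fold change was 3.56 ± 0.92 (adjusted p = 0.171, and 0.0798 with the block). Schwann cells are a known source of Dhh, and their 4 markers summed to 14.8 to 22.0 CPM in the negative and 7.20 to 12.1 CPM in the positive libraries. Of these, Sox10, a transcription factor of the Schwann lineage, was at 2.85, 3.17 and 0 against 1.30, 0.913 and 0.353 CPM. The part of such cells in the Dhh counts was not tested.

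The rest of the pathway was described by 46 listed genes, of which 40 were tested. Without the block limma-voom and edgeR called 0 and DESeq2 4 (Disp1, Gpc3, Scube3 and Snai1), where DESeq2 called 698 of all 14855 genes. With the block limma-voom called 4, or 10% against 8.57% of all genes. The median log2 fold change was 0.13, with 27 above 0. Among genes for ligand processing and release, 1 of 5 fell with the block, against 4.25% of all genes. This was Disp1, which releases lipid-bearing ligand from the producing cell. It was at 19.3, 15.1 and 13.9 CPM in the negative and 29.5, 24.1 and 40.9 CPM in the positive libraries, which did not overlap (log2 fold change -0.93 with the block, adjusted p = 0.0346 with limma-voom and 0.0891 with edgeR). Scube3 and Scube2, secreted helpers of ligand release, had the widest folds of that list, at 3.25 ± 1.38 (adjusted p = 0.337) and 1.499 ± 0.55 (adjusted p = 0.281), and limma-voom did not call them with the block either (adjusted p = 0.0729 and 0.106). DESeq2 with the block called both (adjusted p = 0.00304 and 0.0224). Scube3 was at 1.16, 2.13 and 4.35 against 0, 0.351 and 0.318 CPM.

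Among other surface binders, Gpc3, a glypican that binds Hedgehog ligands and competes with Ptch1, was at 184, 244 and 106 CPM in the negative and 523, 778 and 385 CPM in the positive libraries. It fell by 1.68 on the log2 scale with the block (limma-voom adjusted p = 0.000237, and 0.0967 without it). Of the 21 genes of signal transduction, 1 rose with the block, against 4.32% of all genes. This was Prkar1a, a regulatory subunit of protein kinase A (0.52, limma-voom adjusted p = 0.0485, and 0.126 with edgeR). The median of the list was 0.09. Sufu, which restrains the GLI factors, was at 0.22 ± 0.35 (adjusted p = 0.808), and Efcab7 had the widest fold of the list at -1.18 (adjusted p = 0.378). Of 12 tested genes reported as targets elsewhere, 1 rose with the block, against 4.32% of all genes. This was Snai1, a transcription factor of mesenchymal cells, at 32.8, 36.3 and 47.2 against 12.1, 20.5 and 13.9 CPM (1.20 with the block, limma-voom adjusted p = 0.0124). Foxf1 had the widest fold of the 12 at 1.60 (adjusted p = 0.470), and the list's median was 0.29.

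Hedgehog signals pass through the primary cilium, and 19 cilium genes were tested. Without the block limma-voom and edgeR called 0 and DESeq2 1, Cep290, a protein of the ciliary transition zone, where DESeq2 called 698 of all genes. With the block Cep290 was also the 1 of 19 that limma-voom called, against 8.57% of all genes. It fell by 0.93 on the log2 scale (limma-voom adjusted p = 0.0475, and 0.0838 with edgeR). Rpgrip1l, of the same zone, had the widest fold at -1.29 (adjusted p = 0.332). The median of the list was 0.02, with 10 genes above 0.

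**Figure D5:**
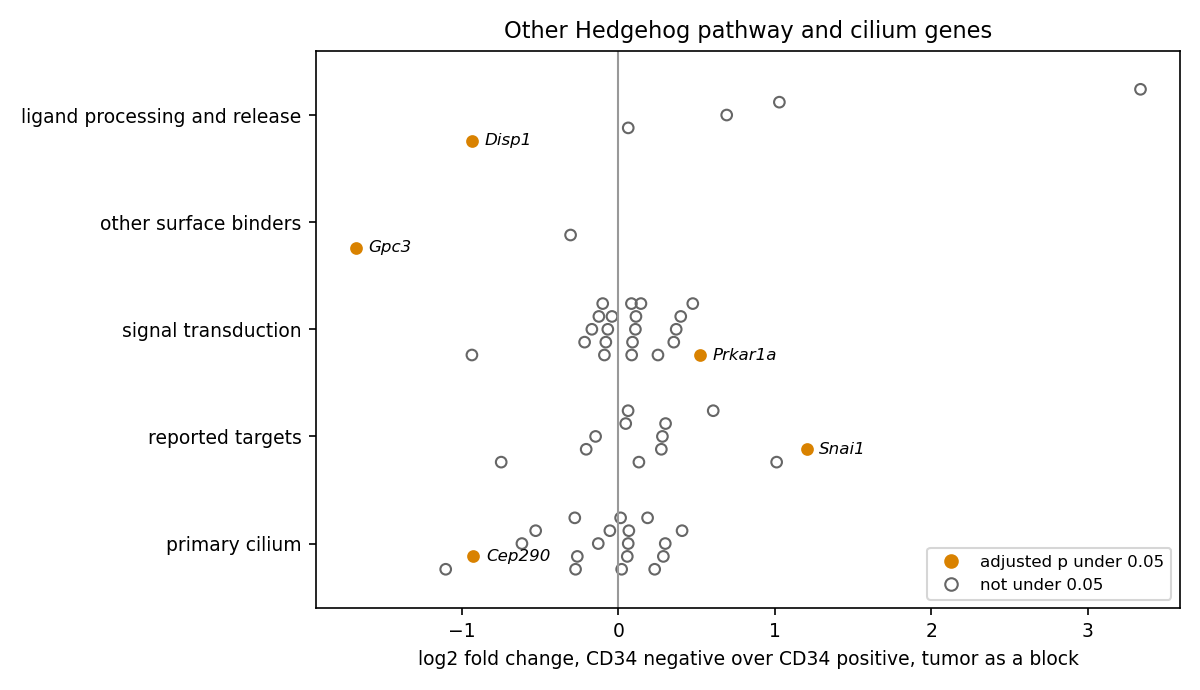
Log2 fold changes with the tumor as a block for the tested pathway and cilium genes, 1 point per gene and 1 row per list, with filled points for an adjusted p under 0.05. The 5 filled points are Disp1, Gpc3 and Cep290 below 0 and Prkar1a and Snai1 above 0.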

How the data were processed

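Per the study's methods, RNA libraries were made with Illumina TruSeq RNA v2 and sequenced on an Illumina instrument. The authors aligned reads to GRCm38/mm10 with Rsubread, and the submitters' processing notes name featureCounts. The deposited values are raw counts per NCBI gene, 1 column per library. Strandedness and the handling of reads with several matches are not given in the sources used here, so reads of overlapping genes cannot be told apart. Groups and tumor numbers came from the sample titles.

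Genes were filtered with filterByExpr (minimum count 10), scaled by TMM and tested, two-sided, with limma-voom (limma 3.58.1 and edgeR 4.0.16 in R 4.3.3) at an adjusted p threshold of 0.05, with DESeq2 1.42.0 as an alternative. The study states no term for the tumor. Libraries of 1 tumor deviated from their group means together (correlation 0.373, 0.35 and 0.219 in tumors 1, 2 and 3), so a blocked fit is given beside it. Errors of fold changes are standard errors over 3 libraries per group. Tests were tried on simulated data. The members and gene lists were chosen with earlier results of these data known. Pathway and cilium genes other than the members were named if limma-voom called them with or without the block, if they were ligands or Sufu, or if they were among the 2 of a list with the widest fold. Some genes enter the counts and sums but are not reported here on their own. Alternatives covered the test, the block, the normalization, the filter, the annotation and each library and tumor.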

Additional observations from a re-analysis of the deposited data

How the results depend on the processing

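The 9 members' log2 fold changes came from 3 libraries per group, and the counts of calls depended on the block and on the tool. Without it, limma-voom called 0 members of 18 genes in all. With the replicate block it called 2 of the members, 1273 of all genes, 4 other pathway genes and 1 cilium gene. edgeR called 9 of all genes, and with the block 1 member, 575 genes and 2 other pathway genes. DESeq2 called 698 genes, 4 other pathway genes and 1 cilium gene, and with the block 3 members, 1733 genes, 6 other pathway genes and 1 cilium gene. Sample quality weights called 1 member (Cdon, adjusted p = 0.0492) and 161 genes, and scaling by the library total alone called 32 genes. Without each library or tumor in turn, the fits without the block called 0 to 0 members and 0 to 86 genes. With the block and without tumors 1, 2 and 3, the members called were 2, 1 and 2, all genes 1134, 851 and 2019, other pathway genes 4, 5 and 7, and cilium genes 0, 0 and 2. Ptch1 turned above 0 with the block (0.067), edgeR (0.090), DESeq2 (0.079) and the block without tumor 1 (0.29) or tumor 2 (0.20). Quality weights turned Gli3 to 0.057 and Gas1 to -0.21. The block turned Smo to -0.040 without tumor 1, and Gli1 to 0.014 and Gli3 to 0.13 without tumor 3. Leaving out 1 library or tumor without the block gave -0.82 to 0.13 for Gli1, -0.29 to 0.14 for Gli3, -0.62 to 0.36 for Ptch1, -0.046 to 0.19 for Smo and -0.52 to 0.66 for Gas1, while Gli2, Hhip, Cdon and Boc kept their sign. The cause was not tested.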
